A study of Arabidopsis thaliana with 12 samples.

Results

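Small RNA libraries from Arabidopsis thaliana shoots were described here through 106 predicted miRNAs that were missing from some libraries and well counted in others. The table of counts holds 390 miRNA names, of which 216 are known ath-miR names and 174 are predictions named NovelmiRNA with a number. A predicted name was a member when it had a count of 0 in at least 1 of the 12 libraries and a mean of at least 10 counts over the 3 libraries of at least 1 group. Names with identical counts in every library were taken once, and predictions identical to a known name were left out, so that 116 names gave 106 members among the 357 distinct rows of the table. Of the other predicted names, 35 were above 0 in all 12 libraries and 23 had a 0 but no group mean of 10. The members were chosen by these counts, so which libraries list them is given as a description without a test.

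The 4 groups, each of 3 biological replicates by the labels, were hasty knockout shoots in low N, hasty knockout shoots in the control condition, Col-0 wild-type (WT) shoots in low N and WT shoots in the control condition. The seedlings were 10 days old, and the protocol text gives 5 days on standard nutrients followed by 5 days on low nitrogen. It does not describe the control medium separately, and the labels do not name the hasty allele. The labels give Col-0 for the WT and no separate background for the mutant. HASTY mRNA was not analysed here, so the knockout itself was not checked.

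Plant miRNAs are cut from hairpin precursors by DICER-LIKE1 and loaded into ARGONAUTE1, where they guide the cleavage or translational repression of complementary mRNAs. HASTY, the plant counterpart of exportin 5, was first known for its effect on the timing of vegetative phase change and is needed for normal levels and for cell-to-cell movement of many miRNAs. Nitrogen supply is known to change several miRNA families, miR169 and miR395 among them. A predicted miRNA is a candidate that software finds from the way small RNA reads stack on a hairpin, and it can turn out to be an miRNA, an siRNA or a fragment of another RNA.

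The predicted names come with no sequence and no position in the sources used here, so none of the 106 can be placed on a chromosome or given a seed. The sequences shown are those of 5 known miRNAs whose counts a member repeated or nearly repeated in the libraries that list both. They were read from RefSeq's TAIR10.1 assembly, 5′ to 3′, and capitals mark the seed, bases 2 to 8 of the 21.
miR395b: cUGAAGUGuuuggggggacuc
miR395c: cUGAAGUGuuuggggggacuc
miR395f: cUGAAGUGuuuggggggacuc
miR164c-3p: cACGUGUUcuacuacuccaac
miR169k: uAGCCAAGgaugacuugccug
On TAIR10.1, miR395b lies at chr1:9364540-9364560, miR395c at chr1:9367149-9367169 and miR395f at chr1:26273939-26273959, all on the plus strand. The miR164c-3p arm lies at chr5:9852747-9852767 on the plus strand, and miR169k at chr3:9875675-9875695 on the minus strand. None of the 5 overlaps an annotated protein-coding gene. The miR395 copies have 1 mature sequence and 1 seed between them, UGAAGUG, while miR164c-3p has the seed ACGUGUU and miR169k the seed AGCCAAG. miR395 targets sulphate assimilation genes, the miR164 family targets NAC transcription factor genes and miR169 targets NF-YA transcription factor genes. For miR164 this is stated of the family and not of the miR164c-3p arm printed here.

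A library listed between 30 and 50 of the 106 members. Per library, 30 to 33 members were above 0 in hasty low N, 36 to 39 in hasty control, 34 to 43 in WT low N and 42 to 50 in WT control. The table totals ran in nearly the same order, from 1292752 to 1767854 counts in hasty low N, 1946702 to 2324323 in hasty control, 2299445 to 2539507 in WT low N and 2808655 to 3226269 in WT control. Depth and group cannot be told apart in this order. Within groups the deeper library did not always list more members, and WT low N replicate 3, with 2450475 counts, listed 34 where replicate 2, with 2299445, listed 43. The members together made up between 0.213% and 0.653% of a library's counts. The highest share, 0.653%, belonged to hasty low N replicate 3, against at most 0.424% in the other 11 libraries. In that library NovelmiRNA-57 had 1358 counts, NovelmiRNA-67 had 1334 and NovelmiRNA-44 had 842, and without these 3 members its share was 0.379%.

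**Figure D1:**
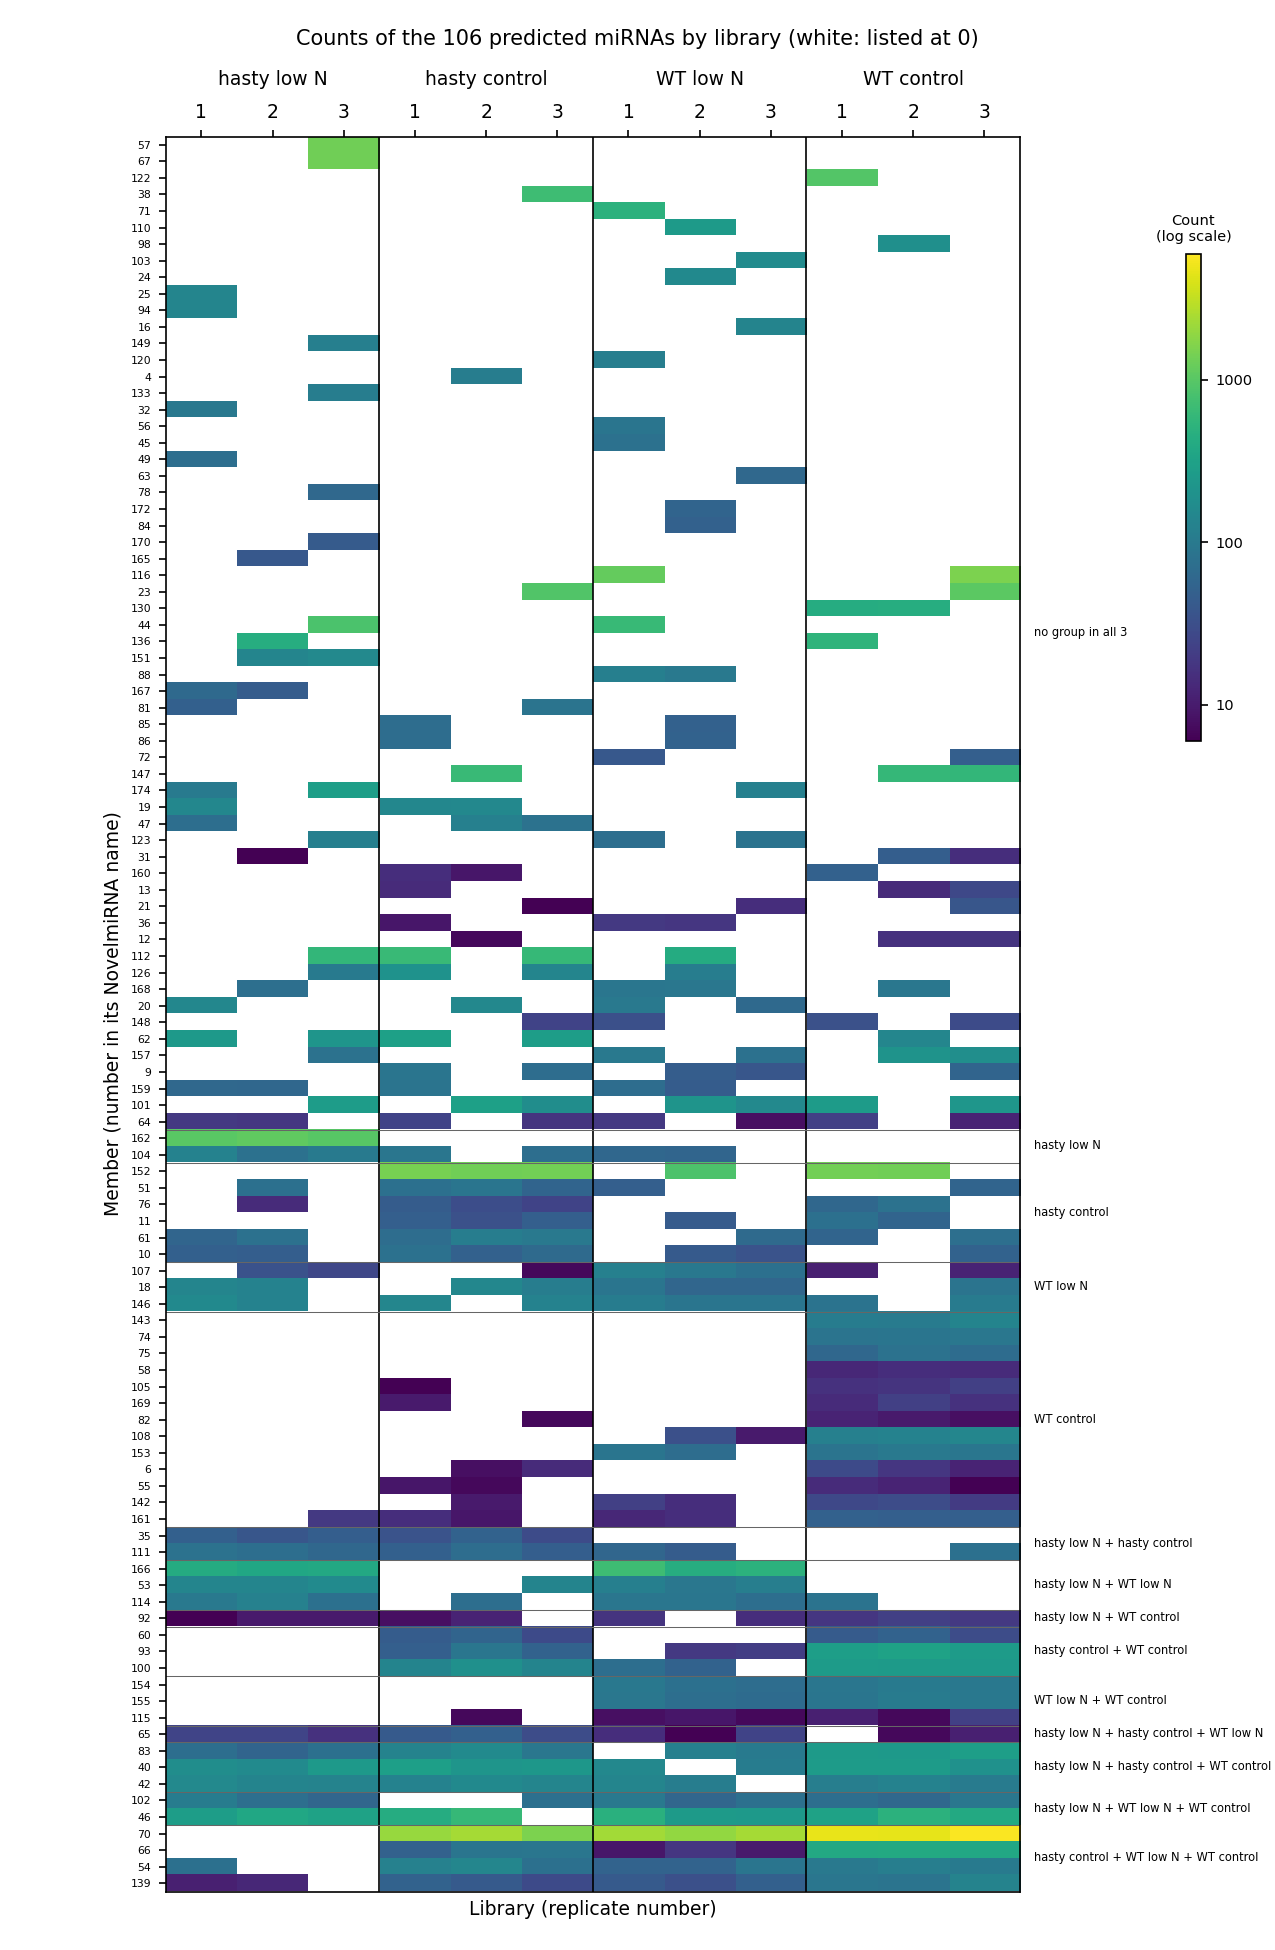
Counts of the 106 members (rows, by NovelmiRNA number) in the 12 libraries (columns), on a log colour scale, with white for a count of 0. Rows are sorted by the groups in which all 3 libraries were above 0, named at the right. The top block of 60 members has no such group.

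Most members did not follow the groups. In 60 of the 106 no group had all 3 libraries above 0, in 24 a single group had, in 12 a pair of groups and in 10 a set of 3 groups. Only 12 members, 11.3% of the 106, had every group either wholly above 0 or wholly at 0, and 94 had at least 1 group in which replicates were split between 0 and a count. Known miRNAs with a 0 and a group mean of 10 (48 distinct rows) had such a split about as often, with 8.3% of them free of it. They differed more in the other count, since 22.9% of them had no wholly listed group, against 56.6% of the members. Both sets were chosen for their zeros, so the difference is a description.

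A member's count was either 0 or well above it. Of the 1272 cells of member and library, 810 (63.7%) were 0, and the rest had a median of 79.5 counts, with a lowest of 6 and a highest of 5685. No predicted name anywhere in the table had a count between 1 and 5 in any of its 951 cells above 0. Among the known names, 152 of 2088 cells above 0 lay between 1 and 5. Counts in groups where only some replicates listed a member were nearly as high as in wholly listed groups, with medians of 74.5 and 87. The rule itself favours this. For the 60 members with no wholly listed group, the mean of 10 had to be reached in a partly listed group, zeros included. In the partly listed groups 151 of 228 counts (66.2%) were 50 or more, against 58 of 133 (43.6%) for the known names with a 0. In an alternative added after seeing the data, every library was drawn at random down to the smallest table total and counts under 6 were set to 0. It gave 846 zeros, against 810 before it, and a library then listed 29 to 32 members in hasty low N, 30 to 38 in hasty control, 31 to 42 in WT low N and 36 to 42 in WT control. No limit is set from a 0, because the predicted rows appear to list only counts of 6 or more.

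**Figure D2:**
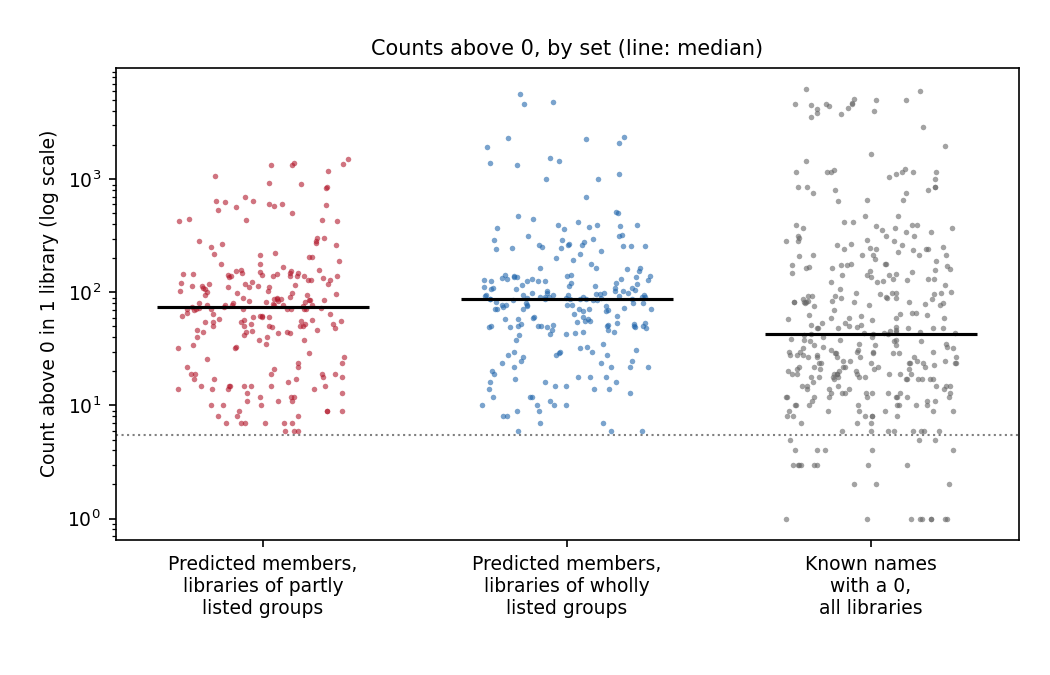
Counts above 0 (log scale), 1 point for each name and library, for members in partly listed groups, members in wholly listed groups and known names with a 0. Black lines are medians, at 74.5, 87 and 42.5 counts, and the dotted line lies between 5 and 6 counts, under which no member has a point.

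In some partly listed groups 1 library had 0 beside 2 libraries of 50 counts or more. This occurred in 39 groups of 30 members and in each of the 12 libraries, between 1 and 6 times. NovelmiRNA-152 had 1385 and 1341 counts in WT control replicates 1 and 2 and 0 in replicate 3. NovelmiRNA-112, which is identical to NovelmiRNA-113, had 640 and 612 in hasty control replicates 1 and 3 and 0 in replicate 2. In these examples the library at 0 was the deepest of its group, and WT control replicate 3 had the highest table total of the 12. Cases in replicates 1, 2 and 3 numbered 1, 2 and 4 in hasty low N and 3, 6 and 2 in hasty control. They numbered 2, 4 and 6 in WT low N and 2, 3 and 4 in WT control. The shallowest library was replicate 3 in both hasty groups, replicate 2 in WT low N and replicate 1 in WT control. Whether depth bears on these zeros was not tested.

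NovelmiRNA-62, NovelmiRNA-101, NovelmiRNA-146, NovelmiRNA-157, NovelmiRNA-18, NovelmiRNA-61 and NovelmiRNA-104 each had more than 1 group with such a 0. NovelmiRNA-101 had 303 and 178 counts in hasty control and 216 and 155 in WT low N, with replicate 1 at 0 in both, and 267 and 225 in WT control with replicate 2 at 0. NovelmiRNA-62 had 253 and 218 counts beside a 0 in hasty low N, and 303 and 283 beside a 0 in hasty control, with replicate 2 at 0 in both. NovelmiRNA-146 had 158 and 129 counts in hasty low N beside a 0 in replicate 3, 144 and 129 in hasty control beside a 0 in replicate 2, and 83 and 107 in WT control beside a 0 in replicate 2. In WT low N the same name was above 0 throughout, at 110, 88 and 89 counts. The libraries at 0 thus changed from group to group and from member to member. Single cases, with 53 to 594 counts beside the 0, were also found in NovelmiRNA-147, NovelmiRNA-130, NovelmiRNA-19, NovelmiRNA-126, NovelmiRNA-151, NovelmiRNA-174, NovelmiRNA-88, NovelmiRNA-168, NovelmiRNA-47, NovelmiRNA-123, NovelmiRNA-153, NovelmiRNA-9, NovelmiRNA-20, NovelmiRNA-76, NovelmiRNA-159, NovelmiRNA-11 and NovelmiRNA-100.

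NovelmiRNA-46, NovelmiRNA-40, NovelmiRNA-42, NovelmiRNA-83, NovelmiRNA-65 and NovelmiRNA-139 were each missing from a single library. NovelmiRNA-46 had between 247 and 607 counts in 11 libraries and 0 in hasty control replicate 3. NovelmiRNA-40 had between 110 and 297 and was missing from WT low N replicate 2, NovelmiRNA-42 between 107 and 161 and missing from WT low N replicate 3, and NovelmiRNA-83 between 56 and 289 and missing from WT low N replicate 1. Each of these lowest listed counts is far from 0, unlike those of NovelmiRNA-65, which had 6 to 50 counts and a 0 in WT control replicate 1.

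At the other end, 26 members were above 0 in a single library, 12 in 2 libraries and 16 in 3. Of the 26, 11 were in a hasty low N library and 2 in a hasty control library, and 11 were in a WT low N library and 2 in a WT control library. Low N libraries thus held 22 of the 26, against 4 in control libraries, while the table totals of the low N libraries were lower within each genotype. Their single counts, from which the minimum group mean of 10 keeps low ones out, ran from 40 to 1358 with a median of 115.5. The highest were NovelmiRNA-57 and NovelmiRNA-67, both in hasty low N replicate 3, followed by NovelmiRNA-122 with 937 counts in WT control replicate 1, NovelmiRNA-38 with 697 in hasty control replicate 3 and NovelmiRNA-71 with 502 in WT low N replicate 1. A count in 1 library has no replicate behind it. Among the known names with a 0 and the same minimum mean, 1 of 48 was above 0 in a single library. With no minimum mean there were 15 distinct known rows in a single library, with 76 counts at most, and 34 predicted rows.

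In the 12 members that followed the groups, the listing separated genotypes, nitrogen conditions or both. NovelmiRNA-154 and NovelmiRNA-155 were above 0 in every WT library and at 0 in every hasty library. NovelmiRNA-154 had 0 in all 6 hasty libraries, against 95, 76 and 70 counts in WT low N and 90, 104 and 95 in WT control. NovelmiRNA-155 had 92, 72 and 68 counts in WT low N and 87, 105 and 95 in WT control, within 5.26% of NovelmiRNA-154 in each library. The pair is therefore nearly 1 row. NovelmiRNA-153, which was at 0 in WT low N replicate 3, came within 5.71% of NovelmiRNA-155 and 8.42% of NovelmiRNA-154 in its 5 libraries. NovelmiRNA-74, listed in WT control alone, came within 11.1% of NovelmiRNA-153 in its 3 libraries. Close names can thus fall in different listing patterns, and whether any of them share reads was not tested.

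The reverse pattern had 1 member, NovelmiRNA-35, with 50, 38 and 47 counts in hasty low N and 35, 52 and 29 in hasty control, against 0 in all 6 WT libraries. NovelmiRNA-166 was above 0 in low N alone, with 420, 371 and 388 counts in hasty low N and 693, 445 and 511 in WT low N, against 0 in all 6 control libraries. NovelmiRNA-60 was above 0 in control alone, with 0 in all 6 low N libraries, against 45, 56 and 28 counts in hasty control and 44, 53 and 30 in WT control. These members are few beside those that were merely absent from one side. Counting any number of libraries on the listed side, 20 members were at 0 in all WT libraries and 25 at 0 in all hasty libraries. Likewise 30 were at 0 in all control libraries and 20 at 0 in all low N libraries. A member listed in a single library is at 0 on the other side by construction. Such members were 22 of the 30 and 4 of the 20 in these nitrogen counts. Those at 0 in all WT libraries included 11 of them from hasty low N and 2 from hasty control. Those at 0 in all hasty libraries included 11 from WT low N and 2 from WT control.

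**Figure D3:**
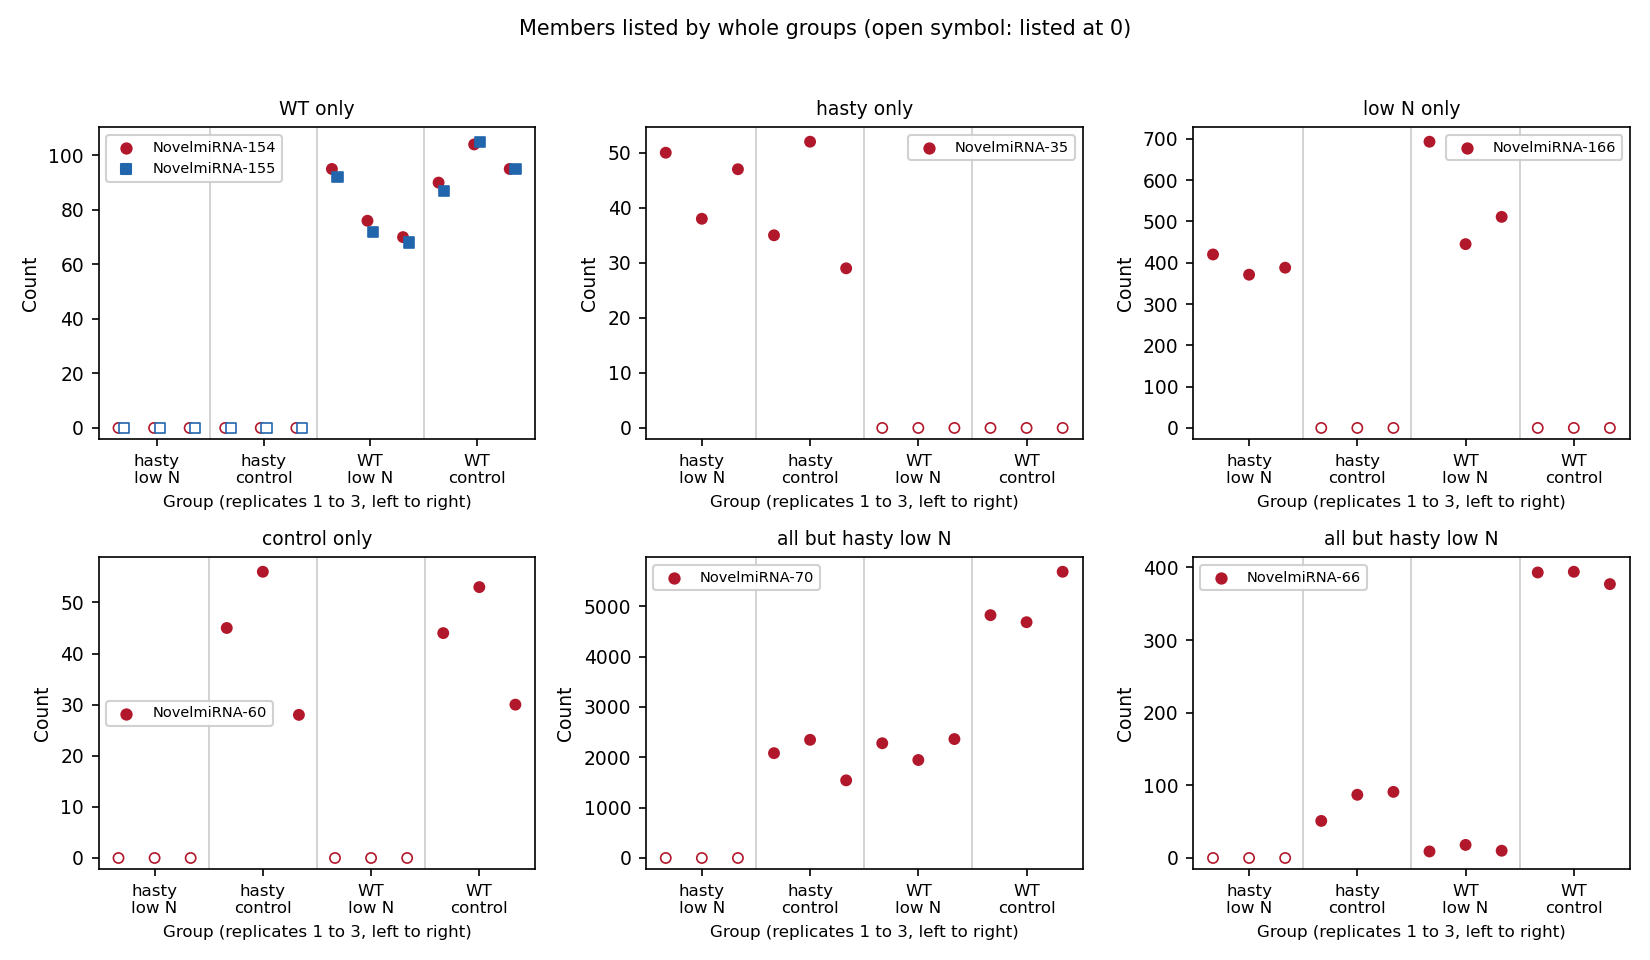
Counts by library of 7 members whose groups were wholly above 0 or wholly at 0, with 3 replicates per group and open symbols for a count of 0. NovelmiRNA-154 and NovelmiRNA-155 have points above 0 in WT only, NovelmiRNA-35 in hasty only, NovelmiRNA-166 in low N only and NovelmiRNA-60 in control only, and NovelmiRNA-70 and NovelmiRNA-66 are at 0 in hasty low N alone.

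NovelmiRNA-70 and NovelmiRNA-66 were at 0 in hasty low N and above 0 in every other library. NovelmiRNA-70 was the most abundant member, with 0 in the 3 hasty low N libraries, 2082, 2347 and 1542 counts in hasty control, 2279, 1946 and 2362 in WT low N and 4823, 4683 and 5685 in WT control. The WT control libraries lay above all others, and the hasty control and WT low N libraries overlapped in raw counts. NovelmiRNA-66 had 0 in the 3 hasty low N libraries, 51, 87 and 91 counts in hasty control, 9, 18 and 10 in WT low N and 393, 394 and 377 in WT control. Its 4 groups did not overlap.

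The last 5 of the 12 were above 0 in 1 group alone. NovelmiRNA-162 had 1018, 1107 and 1007 counts in hasty low N and 0 in the other 9 libraries. The other 4 were in WT control alone. NovelmiRNA-143, identical to NovelmiRNA-144 and NovelmiRNA-145, had 109, 107 and 134 counts there, NovelmiRNA-74 had 86, 88 and 94, NovelmiRNA-75 had 61, 81 and 69, and NovelmiRNA-58 had 13, 15 and 14. WT control, the group with the highest totals, was also the only wholly listed group of 9 further members, which made 13 in all, against 2 for hasty low N, 6 for hasty control and 3 for WT low N.

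Of those 9, NovelmiRNA-108 and NovelmiRNA-153 were the highest and both were at 0 in all hasty libraries. NovelmiRNA-108, identical to NovelmiRNA-109, had 0, 32 and 10 counts in WT low N and 121, 129 and 143 in WT control. NovelmiRNA-153 had 87, 71 and 0 counts in WT low N and 85, 99 and 91 in WT control. The other 7 were lower, with WT control means between 10 and 49.7 counts.

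The other members with 1 wholly listed group each had at least 1 partly listed one. In hasty low N, NovelmiRNA-104 had 127, 80 and 102 counts and was at 0 in all of WT control. In hasty control, NovelmiRNA-152 was the highest, and NovelmiRNA-61 (71, 112 and 97 counts), NovelmiRNA-51 (77, 88 and 55), NovelmiRNA-10 (80, 51 and 65), NovelmiRNA-11 (49, 33 and 49) and NovelmiRNA-76 (45, 31 and 24) followed. In WT low N the wholly listed members were NovelmiRNA-107 with 122, 96 and 77 counts, NovelmiRNA-18 with 87, 58 and 58 and NovelmiRNA-146. NovelmiRNA-107 also had low counts elsewhere, between 7 and 34 in the 5 other libraries that listed it.

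Pairs of groups were wholly listed in 12 members. Both control groups were in NovelmiRNA-93, NovelmiRNA-100 and NovelmiRNA-60. NovelmiRNA-100 had 0 in hasty low N, 136, 192 and 136 counts in hasty control, 73, 53 and 0 in WT low N and 264, 258 and 249 in WT control. Both low N groups were in NovelmiRNA-166, NovelmiRNA-53 and NovelmiRNA-114. NovelmiRNA-53 had 140, 141 and 164 counts in hasty low N, 118, 94 and 114 in WT low N, a single 135 in hasty control replicate 3 and 0 in WT control. NovelmiRNA-114 had 99, 126 and 77 counts in hasty low N and 91, 90 and 73 in WT low N, with a single 73 in hasty control replicate 2 and 84 in WT control replicate 1. Both differed from NovelmiRNA-166 by these lone control counts. The other pairs were hasty alone (NovelmiRNA-35 and NovelmiRNA-111), WT alone (NovelmiRNA-154, NovelmiRNA-155 and the low NovelmiRNA-115) and hasty low N with WT control (NovelmiRNA-92, at most 22 counts). NovelmiRNA-111 had 82, 72 and 61 counts in hasty low N and 50, 71 and 47 in hasty control, beside 58, 45 and 0 in WT low N and 0, 0 and 77 in WT control.

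Sets of 3 groups were wholly listed in 10 members, and the group left out was hasty low N in 4, WT low N in 3, hasty control in 2 and WT control in 1. Besides NovelmiRNA-70 and NovelmiRNA-66, hasty low N was the group left out for NovelmiRNA-54 and NovelmiRNA-139. NovelmiRNA-54 had 77, 0 and 0 counts in hasty low N, 126, 144 and 77 in hasty control, 54, 54 and 88 in WT low N and 98, 114 and 104 in WT control. NovelmiRNA-102, partly listed in hasty control, had 109, 75 and 58 counts in hasty low N, 0, 0 and 77 in hasty control, 98, 59 and 77 in WT low N and 72, 62 and 93 in WT control. Apart from the zeros, the raw counts of these groups overlapped for NovelmiRNA-102. Scaled to a common library total (CPM with TMM factors), hasty low N lay at 42.0 to 71.7. This was above WT low N, at 29.5 to 40.3, and WT control, at 16.0 to 26.4. Such separation was common, at 62.8% of the names above 0 in all 6 libraries of hasty low N and WT low N.

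Some members, picked after their values were seen, were listed in different libraries from each other. NovelmiRNA-162, NovelmiRNA-152 and NovelmiRNA-116 were never above 0 in the same library, and together they covered 11 of the 12 at similar levels, between 861 and 1525 counts. NovelmiRNA-162 held the 3 hasty low N libraries. NovelmiRNA-152 held hasty control with 1449, 1354 and 1396 counts, WT low N replicate 2 with 861, and WT control replicates 1 and 2. NovelmiRNA-116 held WT low N replicate 1 with 1179 counts and WT control replicate 3 with 1525. Only WT low N replicate 3 listed none of them.

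NovelmiRNA-127 and NovelmiRNA-128, both above 0 in all 12 libraries, ran at the same levels. NovelmiRNA-127 had 976, 1001 and 944 counts in hasty low N, where NovelmiRNA-162 was within 9.58% of it. NovelmiRNA-128 was within 8.01% of NovelmiRNA-152 in the 6 libraries that list both. NovelmiRNA-116 came less close, up to 25.1% from NovelmiRNA-127. These names were chosen after their values were seen, and the closer of NovelmiRNA-127 and NovelmiRNA-128 was given for each member. Absence from each other's libraries is common among members, since 2006 of the 5565 pairs (36%) were never above 0 together.

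**Figure D4:**
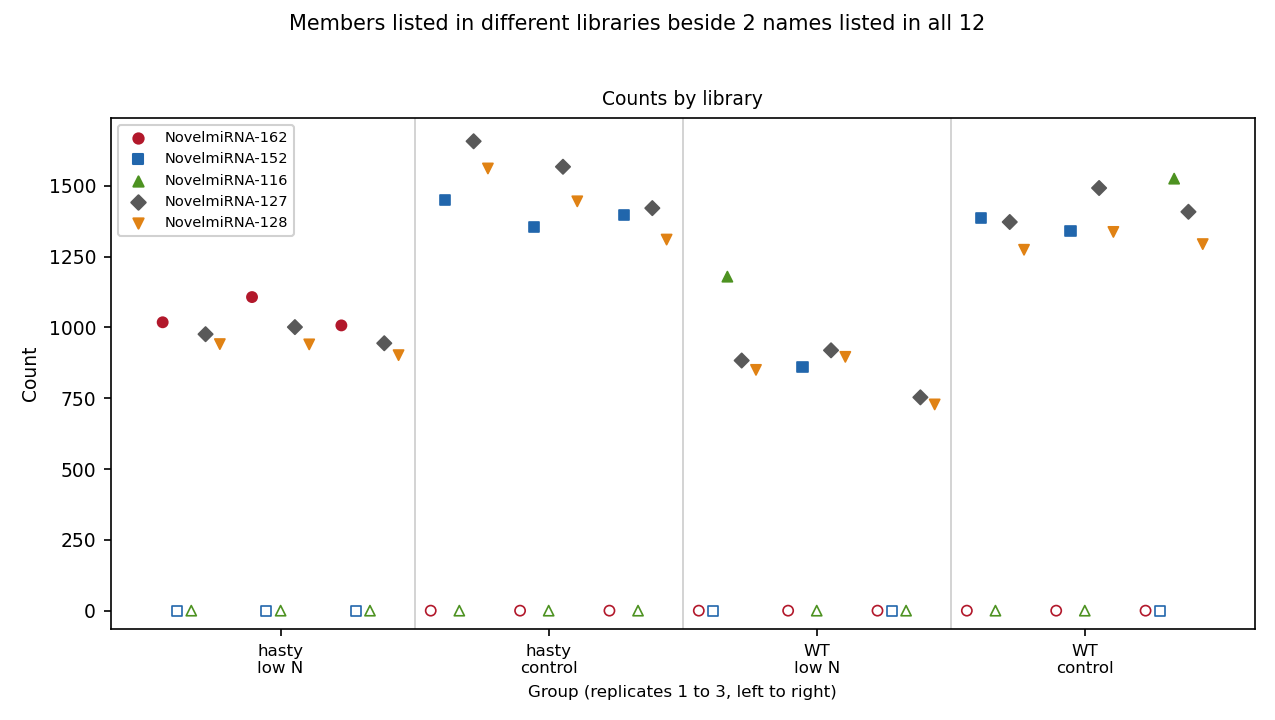
Counts by library of NovelmiRNA-162, NovelmiRNA-152 and NovelmiRNA-116, which are never above 0 together, beside NovelmiRNA-127 and NovelmiRNA-128, which are above 0 in all 12 libraries. Open symbols are counts of 0, and in 11 libraries exactly 1 of the first 3 names lies above 0, between 861 and 1525 counts.

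Some members repeated another name. In 10 members the counts were exactly those of another row in every library that listed both, over at least 2 libraries and with a highest count of at least 20. NovelmiRNA-93 had the counts of miR395b and miR395c in all 8 libraries that list it, 48, 91 and 52 in hasty control, 19 and 21 in WT low N replicates 2 and 3, and 289, 319 and 264 in WT control. Where NovelmiRNA-93 was at 0, miR395b had 10, 9 and 2 counts in hasty low N and 6 in WT low N replicate 1. miR395f, whose mature sequence is the one printed for miR395b, equalled NovelmiRNA-93 in 7 of the 8 libraries and differed by 1 count in WT control replicate 1.

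NovelmiRNA-142 had the counts of miR164c-3p in its 6 libraries, between 10 and 30. Here the known name was not always low where the prediction was missing, with 24 counts in WT low N replicate 3 and 9 in hasty control replicate 3, beside 1, 3 and 1 in hasty low N. NovelmiRNA-130 had 428 and 443 counts in WT control replicates 1 and 2, the same as miR169k, which had 438 in replicate 3 and 44 to 265 in the hasty and WT low N libraries where NovelmiRNA-130 was at 0. NovelmiRNA-139 had the counts of NovelmiRNA-138, listed in all 12 libraries, in the 11 that list both, and was at 0 in hasty low N replicate 3, where NovelmiRNA-138 had 9. The other sets were NovelmiRNA-161 with NovelmiRNA-160 in 3 libraries, NovelmiRNA-75 with NovelmiRNA-76 in 2 and NovelmiRNA-19 with NovelmiRNA-20 in 2. Whether the paired names count the same reads was not tested, since no sequence of a predicted name was at hand.

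**Figure D5:**
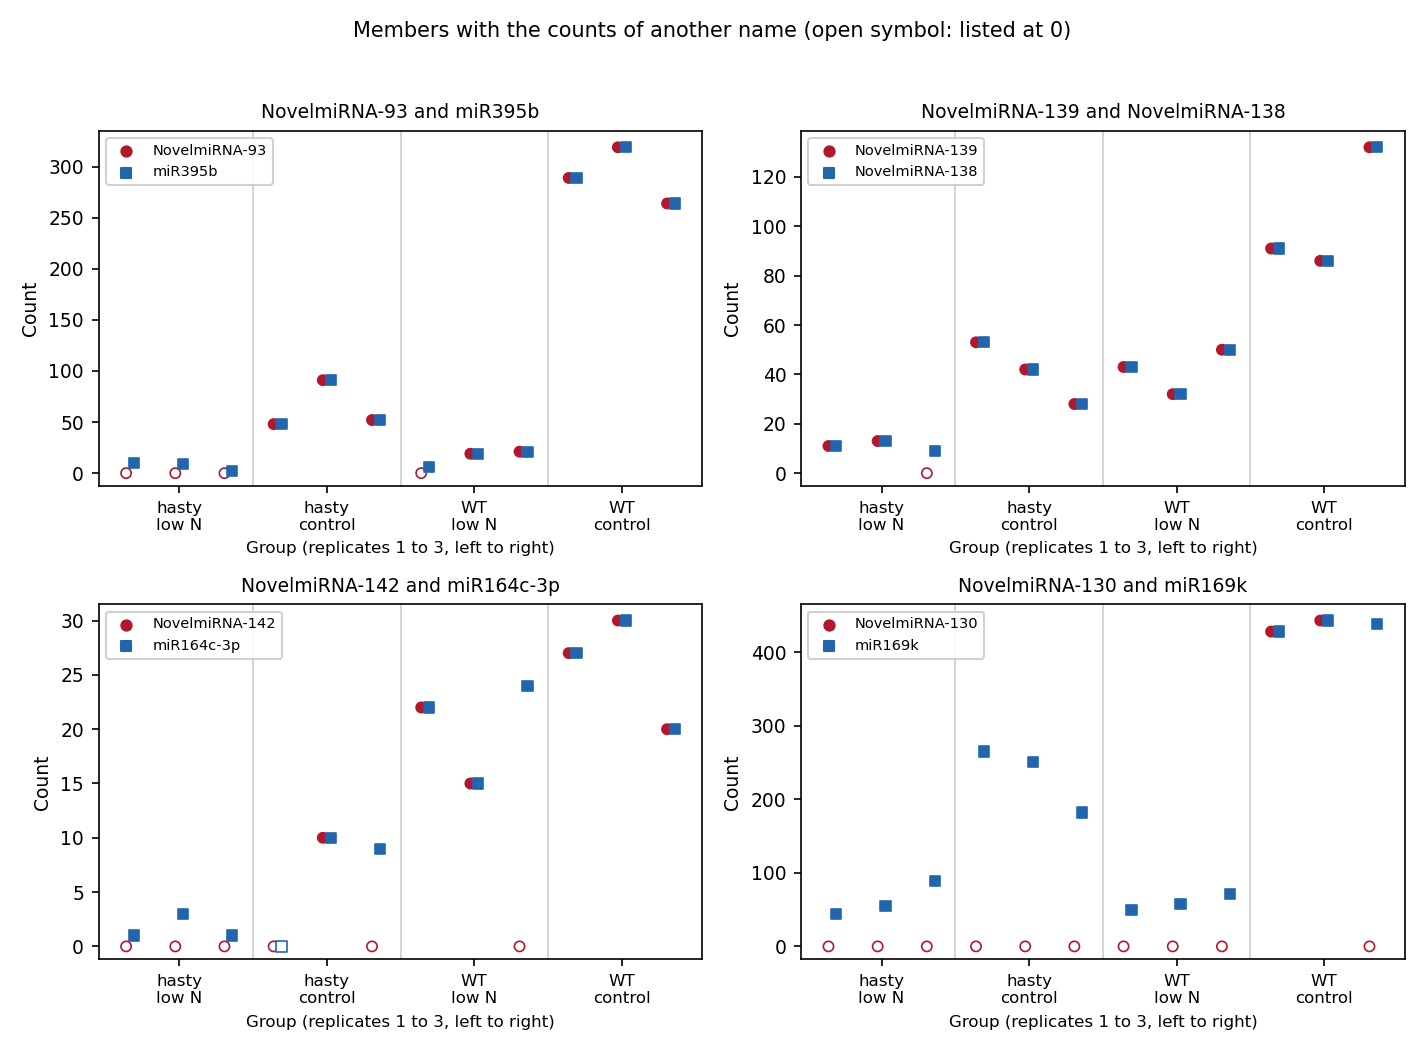
Counts by library of 4 members (red) beside the name whose counts they repeat (blue), with open symbols for a count of 0. Wherever both are above 0 the points coincide, and where the member is at 0 the other name runs from 1 to 438 counts, except that miR164c-3p is also at 0 in hasty control replicate 1.

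Differences between groups were tested with edgeR's quasi-likelihood test on the whole table, in which 273 names passed the filter on low counts. Of the members 60 passed and 46 did not. A member that passed through 1 high group was biased towards a difference, so the counts of calls over members are descriptions. In hasty control against WT control 14 members were called at an adjusted p under 0.05, 4 higher and 10 lower, where 45.8% of all names tested were called, 18.7% higher and 27.1% lower. Of these, 9 were above 0 in all 3 libraries of one group and at 0 in the other. In hasty low N against WT low N 9 members were called, 2 higher and 7 lower, beside 34.8% of all names (11.4% higher, 23.4% lower). In WT low N against WT control there were 11, 3 higher and 8 lower, beside 32.2% (17.2% higher, 15% lower). In hasty low N against hasty control there were 7, 2 higher and 5 lower, beside 23.8% (8.79% higher, 15% lower). Calls with all 3 libraries of one group above 0 and the other group at 0 were 6 of the 9, 8 of the 11 and 7 of the 7. The interaction of genotype and nitrogen called 2 members, beside 1.83% of all names. Both calls rest on the zeros in hasty low N that the rule used. There was 1 when hasty low N replicate 2 or 3, hasty control replicate 2 or WT control replicate 2 was left out. The first count was 9 without WT control replicate 1 and 8 without WT control replicate 2, and that of WT low N against WT control was 7 without either. Each group enters more than 1 comparison, so the comparisons share libraries, and they were not compared with each other. P-values weigh a group difference against the spread between replicate libraries, estimated over all 4 groups, and speak for these libraries only.

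A fold change was read only for members above 0 in all 6 libraries of a comparison. In hasty control against WT control 2 of 10 such members passed, beside 57.4% of all names above 0 in those libraries, and in WT low N against WT control 2 of 8, beside 40.3%. Both times they were NovelmiRNA-70 and NovelmiRNA-66, and both fell, beside 33.9% and 16.7% of those names that fell in the same comparisons. None of 6 passed in hasty low N against WT low N (43.3% of all names) or in hasty low N against hasty control (30.4%). The 6 members differ between these comparisons. In each comparison 0 of its own 6 had an unadjusted p under 0.05 in edgeR, and DESeq2 and limma each called 0 in the first and 1 in the second.

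Levels were compared as CPM, counts scaled to a common library total with TMM factors. NovelmiRNA-70 averaged 925 ± 86.0 CPM in the hasty control libraries, 995 ± 71.3 CPM in the WT low N libraries and 1418 ± 203 CPM in the WT control libraries (SD, n = 3). The log2 change was −0.62 ± 0.12 (SE, edgeR adjusted p = 0.00486) in hasty control against WT control and −0.51 ± 0.12 (edgeR adjusted p = 0.0149) in WT low N against WT control. NovelmiRNA-66 averaged 36.3 ± 12.5 CPM in the hasty control libraries, 5.75 ± 2.85 CPM in the WT low N libraries and 108 ± 7.91 CPM in the WT control libraries (SD, n = 3). Its log2 change was −1.58 ± 0.41 (edgeR adjusted p = 0.017) in hasty control against WT control and −4.23 ± 0.46 (edgeR adjusted p = 0.000381) in WT low N against WT control. For both names every one of the 3 libraries of hasty control and of WT low N lay below every WT control library. Such separation was common, at 68.9% of the names above 0 in all 6 libraries in hasty control against WT control and 52.7% in WT low N against WT control. Median-of-ratios scaling moved the median of all names by 0.12 log2 in hasty control against WT control and by 0.14 in hasty low N against WT low N, and neither name changed its direction or its call.

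The fit over 4 groups pools 1 spread per name, so a 0 beside counts in another group enters a member's error. Names of equal counts differed in error. In hasty control against WT control NovelmiRNA-93 and miR395b have the same 6 counts and the same log2 change of −1.46, but the SE was 1.17 for NovelmiRNA-93 (edgeR adjusted p = 0.381) and 0.60 for miR395b (edgeR adjusted p = 0.0749). NovelmiRNA-139 and NovelmiRNA-138 both had a log2 change of −0.60 there and neither passed (edgeR adjusted p = 0.645 and 0.156), with an SE of 0.94 for NovelmiRNA-139, which has the extra 0 in hasty low N, and 0.32 for NovelmiRNA-138.

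For that reason the 2 groups of each comparison were also fitted alone, over names above 0 in all 6 libraries, an alternative chosen after seeing the data. In hasty control against WT control it called 7 of 10 members, 4 higher and 3 lower, beside 71.1% of all names (31.1% higher, 40% lower). NovelmiRNA-42 had 130, 161 and 141 counts in hasty control and 116, 127 and 107 in WT control, and changed by 1.04 ± 0.21 on the log2 scale (SE, edgeR adjusted p = 0.000542), against an SE of 1.20 in the 4-group fit. NovelmiRNA-54, NovelmiRNA-40 and NovelmiRNA-60 were also higher in hasty control, by 0.86 ± 0.22, 0.77 ± 0.21 and 0.74 ± 0.31 on the log2 scale (SE, highest edgeR adjusted p = 0.0421). NovelmiRNA-93, with the counts of miR395b, fell by 1.47 along with NovelmiRNA-70 and NovelmiRNA-66. The hasty control totals were below the WT control totals, so scaled levels differ more than raw counts for names that were higher in hasty.

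In hasty low N against WT low N the fit of 2 groups called 5 of 6 members, beside 62.5% of all names, and all 5 were higher, beside 28.4% of all names. NovelmiRNA-53 changed by 1.12 ± 0.22 (SE, edgeR adjusted p = 0.000274) and NovelmiRNA-114, NovelmiRNA-65, NovelmiRNA-102 and NovelmiRNA-46 by 0.90 ± 0.24, 1.21 ± 0.42, 0.70 ± 0.26 and 0.66 ± 0.21 (SE, highest edgeR adjusted p = 0.0277), while NovelmiRNA-166, at 0.19 ± 0.15, did not pass (edgeR adjusted p = 0.278). In WT low N against WT control it called 3 of 9, beside 40.3%, all 3 lower, beside 23.7%, and these were NovelmiRNA-139, NovelmiRNA-70 and NovelmiRNA-66. In hasty low N against hasty control it called 3 of 6, beside 40%, all 3 higher, beside 18.3%, and NovelmiRNA-111, NovelmiRNA-35 and NovelmiRNA-42 rose by 0.95 ± 0.23, 0.82 ± 0.27 and 0.55 ± 0.19 on the log2 scale (SE, highest edgeR adjusted p = 0.037). The members are too few for these shares to be read against the background.

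Where a member was listed by all 3 replicates, the replicates agreed about as closely as those of other names. The coefficient of variation was taken on counts scaled to the table totals. Over 60 wholly listed groups with means of 20 to 500 counts, it had a median of 18.4% for the members and ran from 2.57% to 40.3%. Predicted names above 0 in all libraries had a median of 19.2%, known names above 0 in all libraries 16.7% and known names with a 0 21.7%. The members nearest the limit of the rule were NovelmiRNA-82, NovelmiRNA-55 and NovelmiRNA-12, with highest group means of 10, 10.7 and 11 counts, and those just outside it were NovelmiRNA-68, NovelmiRNA-69 and NovelmiRNA-163, with 9.33, 9 and 9. Predicted names that missed the rule because no library was at 0 reached down to 7 counts in NovelmiRNA-34 and 9 in NovelmiRNA-138 and NovelmiRNA-171.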

How the data were processed

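The data are small RNA sequencing counts of 12 libraries in 1 table. As deposited by the authors, the values are whole-number counts of each miRNA name with different column sums, in spite of a table name that says TPM. RNA was extracted with a Maxwell RSC kit, ligated to adaptors and amplified by PCR, per the labels' protocols, with no molecular identifiers named, so counts are not independent molecules. How reads were aligned and counted and how predictions were made were not given in the sources used here. Only a mouse assembly appears in the submitters' processing notes. Column names were matched to the sample titles, which give group and replicate.

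The members and lists were chosen with earlier results of these data known. "Above 0" or listed means a count of 1 or more. Names were filtered with filterByExpr, scaled by TMM and fitted with edgeR 4.0.16 (R 4.3.3) over 12 libraries, with a coefficient for each group and 8 residual degrees of freedom. Tests were two-sided, with Benjamini-Hochberg adjustment over 273 names and a threshold of 0.05. The SE was obtained from the log2 change and its F statistic and restates the test. Alternatives were median-of-ratios scaling, no filter, DESeq2 1.42.0, limma 3.58.1 on log2(CPM + 1), identical rows once, a replicate block, each library left out and other limits of the rule. The edgeR script was tested on simulated data. The simulation had none of the members' all-or-none zeros, so it gives no error rate for them. Members are named by rule: the 5 highest of each listing pattern, those passing the test above 0 in all 6 libraries, and those with a 0 beside 2 libraries of 50 counts or more. Names shown for equal or matching counts were chosen after their values were seen. Replicate libraries differed by more than sampling noise, with a chi-square per degree of freedom of at least 28.5. Sequences are RefSeq's.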

Additional observations from a re-analysis of the deposited data

Results flagged for a closer look

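NovelmiRNA-70 and NovelmiRNA-66 passed edgeR's interaction test of genotype and nitrogen, with adjusted p = 6.32e-08 for NovelmiRNA-70 and 0.0138 for NovelmiRNA-66. These were the 2 members called for the interaction, where 1.83% of all names tested were called. Both had 0 counts in all 3 hasty low N libraries, and these zeros made them members, so the test is no independent evidence of a difference. NovelmiRNA-70 had 1542 to 2347 counts in hasty control, 1946 to 2362 in WT low N and 4683 to 5685 in WT control, and NovelmiRNA-66 had 51 to 91, 9 to 18 and 377 to 394 counts in those groups. No predicted name has a count between 1 and 5, and NovelmiRNA-66 was already near that range in WT low N, so its 0 in hasty low N does not show a different low N effect there. The fitted size of the interaction depends on how a 0 is treated and is no bound, so none is given.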

How the results depend on the processing

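The rule gave 116 members with a minimum mean of 5 counts, 87 with 20, 84 with 10 CPM, 87 after thinning, 88 after thinning with the minimum of 6 applied again and 100 to 107 with a library left out. Members with no partly listed group were 12, 11, 11, 11 and 10 under the first 5 of these and 12 to 16 with a library left out. For members called, no filter gave 7 in WT low N against WT control. DESeq2 gave 17 in hasty low N against WT low N, 16 in hasty low N against hasty control and 10 for the interaction, and limma gave 13 and 6 in the last 2 of these. With a replicate block the calls were 6 in hasty control against WT control, 4 in WT low N against WT control and 1 for the interaction. The replicate numbers showed no clear pairing of libraries, but with a single library per number and group the check cannot exclude one. Same-numbered deviations correlated between −0.29 and 0.38, over 0.1 in 4 of 18 pairs, and 3 of 12 libraries matched their own number best.

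With a library left out, members called ran from 8 to 14 in hasty control against WT control, 7 to 10 in hasty low N against WT low N, 7 to 12 in WT low N against WT control, 7 to 9 in hasty low N against hasty control and 1 to 3 for the interaction. The interaction had 1 without hasty low N replicate 2 or 3, hasty control replicate 2 or WT control replicate 2. Of members above 0 in all 6 libraries, 2 to 3, 0 to 1, 2 to 2 and 0 to 0 were called in the 4 simple comparisons. The 1 in hasty low N against WT low N came without hasty control replicate 3. DESeq2 and limma each called 1 in hasty low N against hasty control, and the fits of 2 groups, added after seeing the data, called 7, 5 and 3 in the comparisons that moved. The cause of these moves was not tested, except that fits of fewer libraries were filtered anew. Of the other results, 179 kept their size within 1.5 times, which does not fix direction or membership. DESeq2 called 8 higher and 9 lower in hasty control against WT control, sharing 9 of the 14 edgeR calls, and 8 higher and 6 lower in WT low N against WT control, sharing 5 of the 11, where edgeR called 3 higher and 8 lower. For the interaction limma called 5 higher and 1 lower, sharing 1 of the 2. The 4 log2 changes of NovelmiRNA-66 and NovelmiRNA-70 kept direction and call under all 72 alternatives. Zeros could not be placed under any limit of detection.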

Other observations

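A second set of members alternated between libraries, as seen after the values were known. NovelmiRNA-112 (with NovelmiRNA-113), NovelmiRNA-147 and NovelmiRNA-136 (with NovelmiRNA-137) were never above 0 together and covered 9 of the 12 libraries at 425 to 648 counts. NovelmiRNA-112 had 574 counts in hasty low N replicate 3, 640 and 612 in hasty control replicates 1 and 3 and 425 in WT low N replicate 2. NovelmiRNA-147 had 648 counts in hasty control replicate 2 and 594 and 580 in WT control replicates 2 and 3, and NovelmiRNA-136 had 440 in hasty low N replicate 2 and 536 in WT control replicate 1. Whether they are forms of one RNA was not tested.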
